A study of Mus musculus with 15 samples.

Results

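The Runx family and its shared partner Cbfb were followed at the level of open chromatin in mouse embryonic fibroblasts (MEFs), connective tissue cells grown from embryos. Of 206367 consensus peaks, 165 had Runx1, Runx2, Runx3 or Cbfb as the nearest protein-coding gene (RefSeq, assembly GRCm38.p6, which mm10 corresponds to), with the peak centre inside the gene or within 100 kb of it. Runx1 held 61 of these peaks, Runx2 65, Runx3 29 and Cbfb 10. Accessibility was measured by Omni-ATAC-seq, in which a transposase cuts open chromatin and tags the fragments for sequencing. Levels are read counts divided by the scaled library total (CPM).

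The 15 libraries form 5 groups of 3, all from cells labelled C57/B16 background. Early and late Fra2 cells carried a CRISPRa-VPR-mCherry construct, a guide-directed transcriptional activator, with guides against the gene of Fra2 (Fosl2), a subunit of the AP-1 transcription factor. Ezh2 inhibitor cells had received GSK343 at 4 µM for 3 days and then a washout day. Late and early control cells carried the same activator with scrambled guides. Fra2 and control cells were purified as mCherry-positive and THY1-positive, THY1 being a fibroblast surface protein, and the labels do not say whether inhibitor cells were transduced or sorted. The inhibitor group was set against early control, so that transduction and inhibitor treatment cannot be told apart in that comparison. The early and late samples are labelled day 3 and day 10 in most sample labels but 4 and 11 in the series design. Early control 3 and the inhibitor samples are labelled day 4. Whether the replicates are separate cultures is not given, so the p-values describe the spread among these libraries only, and that spread may be technical.

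RUNX proteins are transcription factors that bind DNA through the Runt domain. CBFβ, the product of Cbfb, does not bind DNA itself but strengthens the binding of all 3 RUNX proteins. Runx1 is best known as a regulator of blood cell formation, Runx2 as the regulator without which osteoblasts do not form, and Runx3 for its roles in T cells and sensory neurons. RUNX genes have a distal promoter, P1, and a proximal promoter, P2, which give proteins with different first residues.

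The libraries held 6750614 to 25283489 reads in peaks, and early control 3 was the shallowest. It correlated with the other early controls at 0.783 and 0.789, while no pair inside another group fell below 0.896. The limit set by 3 counts lay between 0.117 and 0.42 CPM, which covers counting error only. Of 12 fibroblast marker genes 7 had a peak within 1 kb of an annotated start, and Col1a1, Thy1, Pdgfrb, Dcn and Lum had none, although 25 peaks elsewhere were nearest to Thy1, the gene of the sorted surface protein. Marker levels are CPM summed over start peaks and divided by all genes listed, with or without a start peak. Fibroblast markers gave 11.4 to 13.6 CPM per gene in early Fra2, 10.6 to 10.9 in late Fra2 and 11.2 to 12 in inhibitor libraries. They gave 13 to 13.6 in late control and 10.3 to 15.7 in early control libraries. Of 10 blood cell markers 3 had a start peak, and the defining genes Ptprc and Spi1 had none. The blood sum lay between 2.1 and 2.97 CPM per gene in all 15 libraries. In bulk libraries, fewer cells with an open site and less opening per cell cannot be told apart.

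Runx1 and Runx2 had among the most peaks of any gene, more than 99.1% and 99.2% of the 18293 genes with a peak, whose median was 6. Runx3 had more peaks than 93.6% of genes and Cbfb more than 66.4%. Runx1 (chromosome 16, 92601466 to 92826074, minus strand) spans 224.6 kb and has 2 annotated starts. Of its peaks 37 lay in the gene body, 4 within 1 kb of a start, 13 upstream and 7 downstream. Runx2 (chromosome 17, 44495987 to 44814797, minus strand) spans 318.8 kb with 1 annotated start, and 56 of its 65 peaks lay in the gene body. Supt3 overlaps its 5′ end, and peaks inside both genes went to the gene whose end was nearer. Supt3 thus took peaks upstream of Runx2 and some inside it, 10 of the 75 within 100 kb. The Runx2 counts and sums leave these out. Runx3 (chromosome 4, 135120645 to 135177990, plus strand) is 57.3 kb long, with 12 peaks in the body and 12 upstream. Cbfb (chromosome 8, 105170674 to 105217989, plus strand) is 47.3 kb long and stands among many genes, and 34 of the 44 peaks within 100 kb of it were nearer to another gene. Within 100 kb, 11 peaks near Runx1 went to Clic6 and 24 near Runx3 to Clic4. Peaks within 1 kb of an annotated start of their gene made up 5.45% of the 165, against 11.9% of all peaks within 1 kb of any start.

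The promoter sequences of Runx1, Runx2 and Runx3 are shown because one of them, P1 of Runx1, lay under a peak that changed. Each window runs 5′ to 3′ from 250 bases before to 50 bases after the annotated start (RefSeq, GRCm38.p6), and capitals mark the RUNX core TGTGGT, here read on the other strand as ACCACA.
Runx1 P1, chr16:92826025-92826324, minus strand: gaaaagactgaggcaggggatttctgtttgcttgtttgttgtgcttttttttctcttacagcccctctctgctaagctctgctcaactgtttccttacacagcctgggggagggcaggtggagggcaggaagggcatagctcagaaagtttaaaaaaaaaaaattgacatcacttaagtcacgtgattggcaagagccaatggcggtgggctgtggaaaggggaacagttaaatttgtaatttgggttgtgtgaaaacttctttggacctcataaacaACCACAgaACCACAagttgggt
Runx1 P2, chr16:92697280-92697579, minus strand: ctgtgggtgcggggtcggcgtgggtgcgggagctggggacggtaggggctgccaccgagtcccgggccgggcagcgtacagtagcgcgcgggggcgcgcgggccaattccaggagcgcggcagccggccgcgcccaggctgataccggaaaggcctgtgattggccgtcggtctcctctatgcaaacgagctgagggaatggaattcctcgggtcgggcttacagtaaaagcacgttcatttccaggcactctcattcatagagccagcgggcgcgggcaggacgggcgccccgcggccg
Runx2 P1, chr17:44814578-44814877, minus strand: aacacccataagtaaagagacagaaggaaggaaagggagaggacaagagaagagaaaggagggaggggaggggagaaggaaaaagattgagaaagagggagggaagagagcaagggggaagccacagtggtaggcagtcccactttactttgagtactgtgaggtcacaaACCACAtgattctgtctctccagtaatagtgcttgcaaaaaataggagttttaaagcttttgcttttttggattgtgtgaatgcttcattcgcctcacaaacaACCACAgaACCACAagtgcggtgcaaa
Runx3 P1, chr4:135120395-135120694, plus strand: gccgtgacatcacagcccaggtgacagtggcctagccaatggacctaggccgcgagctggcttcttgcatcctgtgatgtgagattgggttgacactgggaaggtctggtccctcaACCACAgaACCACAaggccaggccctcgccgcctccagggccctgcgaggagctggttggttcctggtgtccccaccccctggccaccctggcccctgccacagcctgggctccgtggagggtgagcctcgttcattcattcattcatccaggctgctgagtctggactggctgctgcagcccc

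The 3 P1 windows share the 18 bases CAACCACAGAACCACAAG, a pair of RUNX cores 2 bases apart. Counted from the annotated start, the run begins at base 27 in Runx1, at 22 in Runx2 and at −136 in Runx3. On this strand these 18 bases occurred in 3 of 32851 promoter windows of the same length, which are these 3. On the other strand they occurred in 1 window. Runx1 P1 and Runx3 P1 hold 2 RUNX cores each and Runx2 P1 holds 3. Over all windows 16.8% hold at least 1 core on either strand, 1.81% at least 2 and 0.183% at least 3. The P2 windows of Runx1 and Runx3 and the Cbfb window hold 0 cores. None of the 6 windows matched the AP-1 motif TGANTCA, which 7.81% of all windows hold on either strand. Base composition separates the promoters as well, since the P1 windows of Runx1 and Runx2 hold 45.0% and 45.3% G and C with 2 CpG each, against 69.0% and 35 CpG in Runx1 P2, 77.3% and 45 in Runx3 P2 and 69.7% and 30 in Cbfb. Runx3 P1 stands between them at 63.7% with 8 CpG. The medians over all windows are 52.7% and 7. A match is a run of letters and not a measured binding site.

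Accessibility at these promoters differed widely over the 15 libraries. The peak over Runx1 P2 averaged 20.9 CPM, higher than 98.5% of all peaks, and the peak over the Cbfb start 16 CPM, higher than 96.8%. The Runx1 P1 peak averaged 4.64 CPM and that over Runx2 P1 3.09 CPM. A second peak over the Runx2 P1 window, nearest to Supt3, averaged 6.4 CPM. Runx3 P2 averaged 2.37 CPM, and no peak overlapped the Runx3 P1 window, whose nearest peak centre lay 8.35 kb away. The highest peak of Runx2 was no promoter peak but one inside the gene 314.0 kb from its start (chromosome 17, 44500386 to 44500887), at 42.7 CPM. It passed the test in none of the 5 comparisons below, although edgeR called it higher in early Fra2 without early control 1 (log2 fold change 0.51, adjusted p = 0.0464). In late cells it averaged 43.3 ± 5.9 CPM with Fra2 guides and 48.4 ± 5.83 in controls (−0.16 ± 0.17; edgeR adjusted p = 0.562), a direction that cyclic loess turned round and called (0.28).

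Summed over all its peaks, each gene gave 1 level per library, in CPM. Runx1 stood at 416, 402 and 372 in early Fra2 libraries, 405, 392 and 404 in late Fra2, 336, 329 and 333 in inhibitor, 376, 395 and 403 in late control and 363, 337 and 340 in early control libraries. The order of group means was late Fra2, early Fra2, late control, early control and inhibitor. The first 3 of these overlapped one another, late control lay above early control without overlap, and so did early control above inhibitor. Runx2 stood at 391, 405 and 399 in early Fra2, 370, 373 and 383 in late Fra2, 317, 330 and 318 in inhibitor, 377, 370 and 354 in late control and 348, 335 and 293 in early control libraries. Early Fra2 lay above late Fra2 without overlap, late Fra2 overlapped late control, late control lay above early control, and early control overlapped inhibitor. Runx3 means ran between 108 and 130 CPM and Cbfb means between 65.7 and 70.1 CPM. Neighbouring groups in these orders overlapped, except that Runx3 lay higher in late control libraries (112 to 124) than in inhibitor libraries (106 to 110).

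**Figure D1:**
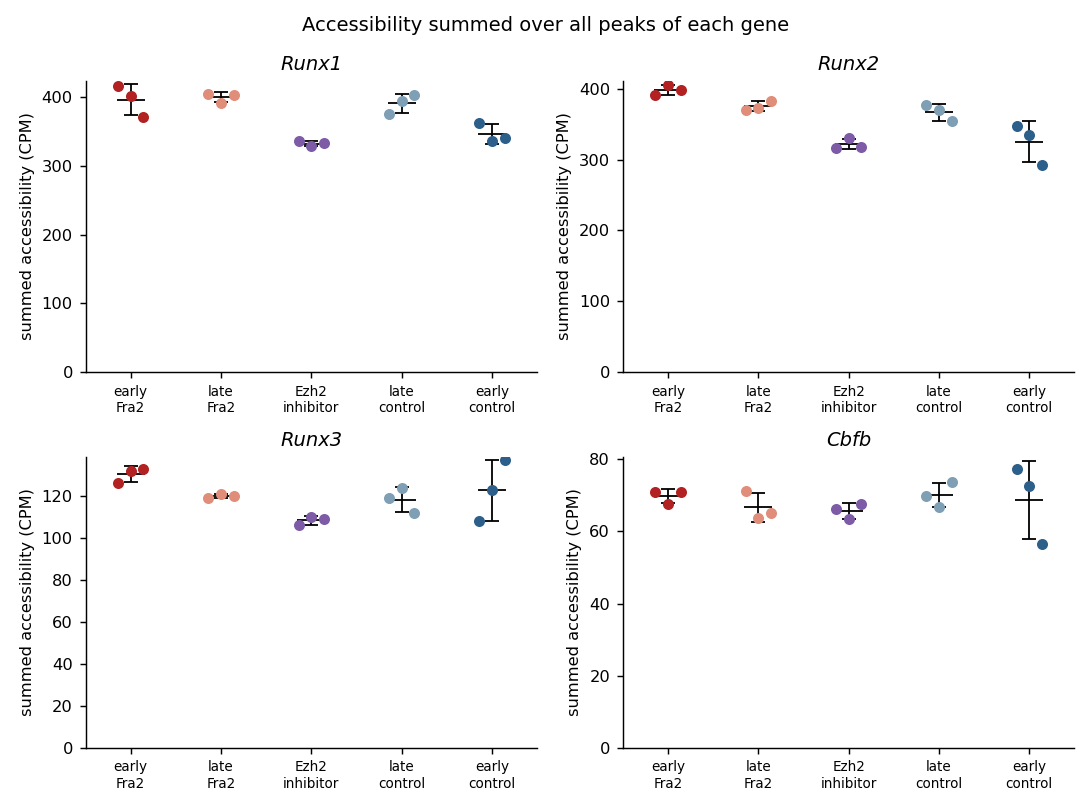
Accessibility summed over all peaks of Runx1, Runx2, Runx3 and Cbfb (vertical axes, CPM, from 0) in each of 15 libraries, by group. Points are libraries and black bars the mean and SD of 3. Runx1 and Runx2 averaged 397 and 398 CPM in early Fra2 and 347 and 326 in early control, while Cbfb averaged 69.8 and 68.8.

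With early Fra2 guides, accessibility around Runx1 and Runx2 was higher than with scrambled guides. The Runx2 sum averaged 398 ± 7.1 CPM in early Fra2 and 326 ± 28.7 in early control (SD, n = 3 each), which is 0.28 ± 0.05 on the log2 scale (± SE; edgeR adjusted p = 0.000118). The Runx1 sum averaged 397 ± 22.2 in early Fra2 and 347 ± 14.4 in early control (0.19 ± 0.04; edgeR adjusted p = 0.00186). Both directions held in 3 of 3 early Fra2 libraries, each above every early control. Runx3 averaged 130 ± 4.11 and 123 ± 14.6 CPM (0.10 ± 0.06; edgeR adjusted p = 0.242), and without early control 3 it passed the test (0.17; adjusted p = 0.0115). Cbfb averaged 69.8 ± 1.96 in early Fra2 and 68.8 ± 10.8 in early control (−0.00 ± 0.08; edgeR adjusted p = 0.975). Among all genes, 14.3% had a sum called higher and 12.1% one called lower.

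Peak by peak, 21 of the 165 were higher and 1 was lower with early Fra2 guides, 12.7% and 0.606% of the members, against 10.1% and 4.92% of all peaks tested, and with scaling on gene-end peaks 47 were higher and 0 lower. The median log2 fold change was 0.13 over the 165 and −0.03 over all peaks. Runx2 held 13 of the 21, which is 20.0% of its peaks. Runx1 held 6 (9.84% of its peaks) and Runx3 2 (6.9%), neither share above the 10.1% of all peaks. The lower peak belonged to Runx3, and 0 of 10 Cbfb peaks passed by edgeR (0 at an unadjusted p under 0.05; DESeq2 called 0, cyclic loess with limma called 1 higher). All 13 Runx2 peaks lay in the gene body, as did 56 of all 65 peaks of Runx2. They ran from 17.2 to 286.9 kb past the 5′ end, with log2 fold changes of 0.55 to 1.34. The 6 Runx1 peaks were spread from 38.3 kb upstream of the gene to 252.4 kb past its 5′ end, with 0.49 to 1.24. Peaks of other cell types' marker genes were also called in early Fra2. Of 60 peaks at 6 epithelial markers 12 were higher and 3 lower (20.0% and 5.0%), and of 85 at 6 endothelial markers 15 and 2 (17.6% and 2.35%). Fibroblast markers gave 32 and 12 of 315 (10.2% and 3.81%), chondrocyte markers 5 and 2 of 59, blood cell markers 3 and 2 of 68 and osteoblast markers 0 and 0 of 30. Only 1 of the 6 epithelial and 2 of the 6 endothelial markers had a start peak, so sums at starts describe few genes. Divided by all 6, epithelial markers gave 0.426 to 0.498 CPM per gene in early Fra2 and 0.501 to 0.544 in early control. Endothelial markers gave 1.99 to 2.35 and 2.16 to 2.57. The defining genes Cdh1, Krt8, Pecam1 and Cdh5 had no start peak. The part of such marker differences in the Runx1 and Runx2 result was not tested. Without early Fra2 2 the higher count of the members was 13. The lower count was 7 without early control 3, 2 without early control 1, 2 without early Fra2 3 and 0 without early Fra2 1.

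Late Fra2 guides gave a smaller count at these genes. Of the 165 peaks 7 were higher and 3 lower than in late control, 4.24% and 1.82%, against 6.44% and 3.54% of all peaks, and with scaling on gene-end peaks 19 were higher and 0 lower. The higher peaks were 3 of Runx1, 3 of Runx2 and 1 of Runx3, and the 3 lower ones were all in Runx2. None of the 4 gene sums passed the test, where 13.3% of all sums were called higher and 10.6% lower. Runx1 averaged 400 ± 7.06 CPM in late Fra2 and 391 ± 14.3 in late control (0.03 ± 0.04), Runx2 375 ± 6.92 and 367 ± 11.5 (0.03 ± 0.05), Runx3 120 ± 0.819 and 118 ± 6.3 (0.02 ± 0.06), and Cbfb 66.7 ± 3.95 and 70.1 ± 3.41 (−0.07 ± 0.08). With scaling on gene-end peaks the sums of Runx1 (0.19), Runx2 (0.19) and Runx3 (0.18) passed. That scaling put the median log2 fold change of all sums at 0.159, against 0.001 with TMM. The higher count was 4 without late control 3 and 4 without late Fra2 2, and the lower count was 8 without early control 3 and 1 without late Fra2 1 or 2.

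The difference between the late and the early Fra2 effect was tested as an interaction. It passed for 1 of 165 peaks, a Runx2 peak with a smaller effect in late cells (0.606%, against 0.0819% of all peaks lower and 0.0116% higher). For the Runx2 sum the difference was −0.25 ± 0.07 (edgeR adjusted p = 0.173), which DESeq2 called at −0.26 (adjusted p = 0.0285) and edgeR called at −0.30 without early control 1 (adjusted p = 0.0393). For the Runx1 sum it was −0.16 ± 0.06 (edgeR adjusted p = 0.343). Among all genes 0.0601% of sums were called lower and 0.0109% higher.

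**Figure D2:**
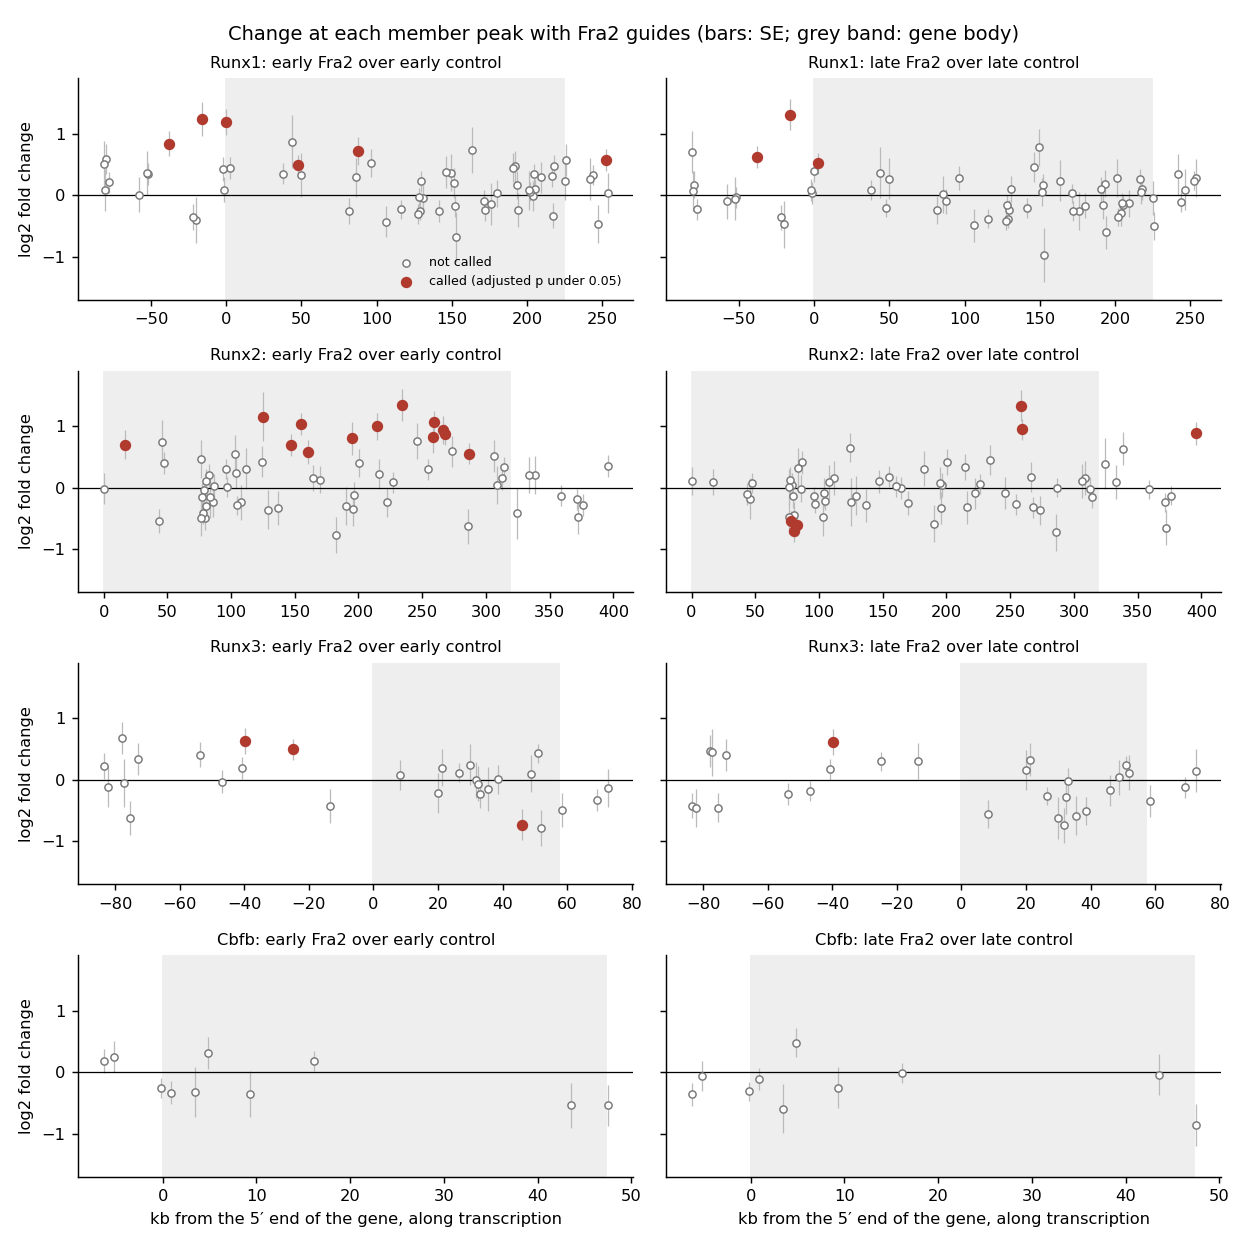
Log2 fold change at every peak of the 4 genes (vertical axis; bars are SE) against distance in kb from the 5′ end of the gene, in early Fra2 over early control (left) and late Fra2 over late control (right). Filled points passed the edgeR test at an adjusted p under 0.05, open points did not, and the grey band is the gene body. For Runx2, 13 of 65 points are filled on the left, 1 at 17.2 kb and the others from 125.1 to 286.9 kb past the 5′ end. On the right few are filled, 3 higher and 3 lower.

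At Runx1, 3 of the 6 peaks higher in early Fra2 lay at or upstream of the distal promoter. Of all 61 Runx1 peaks, 13 lay upstream and 1 at P1. The P1 peak (chromosome 16, 92825738 to 92826239), whose window carries the shared run of RUNX cores, held 5.79, 5.68 and 6.7 CPM in early Fra2 libraries, against 3.33, 2.32 and 1.82 CPM in early control libraries. Every early Fra2 library lay above every early control, and the log2 fold change was 1.19 ± 0.21 (edgeR adjusted p = 3.54e-05). In late cells the peak held 6.25, 6.45 and 6.81 CPM with Fra2 guides, against 6.05, 4.1 and 4.75 CPM in controls (0.40 ± 0.18; edgeR adjusted p = 0.149), and with scaling on gene-end peaks it passed at 0.63. The late controls themselves lay above the early controls (0.90 ± 0.22; edgeR adjusted p = 0.0101), a call lost without early control 2 (adjusted p = 0.0675) or late control 1 (0.0719). Inhibitor libraries held 3.74, 3.09 and 2.76 CPM (0.27 ± 0.22 over early control; edgeR adjusted p = 0.602). The difference between the Fra2 effects at the 2 times was −0.79 ± 0.28 (edgeR adjusted p = 0.297). In the authors' deposited peak lists, a peak overlapped P1 in all 3 libraries of early Fra2, late Fra2, inhibitor and late control, but in 1 of 3 early controls.

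No peak at the proximal promoter P2 passed in any comparison. The highest of its 3 peaks lay over the start (chromosome 16, 92697152 to 92697653). It held 22.5, 20.1 and 16.7 CPM in early Fra2 libraries and 27.2, 23.2 and 19.7 in early controls (−0.25 ± 0.16; edgeR adjusted p = 0.266). Late Fra2 libraries held 18.4, 17 and 17.4 CPM and late controls 21.8, 23.6 and 23.7 (−0.39 ± 0.15; edgeR adjusted p = 0.0905), which passed without early control 3 (−0.39; adjusted p = 0.0178). The ratio of the P1 peak to the 3 peaks at P2, taken within each library, does not depend on scaling. On the log2 scale it was −3.1, −2.94 and −2.49 in early Fra2 libraries and −3.94, −4.32 and −4.37 in early controls, a difference of means of 1.37. The late Fra2 libraries stood at −2.72, −2.49 and −2.56 and the late controls at −2.86, −3.57 and −3.43, a difference of 0.70. Late controls exceeded early controls by 0.92. None of these 3 pairs of groups overlapped, and each gave the smallest p that an exact two-sided permutation test of 3 against 3 allows, p = 0.1. The pairs share early or late controls. They also reuse the libraries in which the P1 peak was called, so they are not independent support. Inhibitor libraries, at −3.63, −3.71 and −4.0, overlapped early controls (difference 0.43; exact permutation p = 0.2).

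Upstream of P1, a peak 16.3 kb away (chromosome 16, 92842094 to 92842595) was higher at both times. It held 3.85, 3.28 and 3.96 CPM in early Fra2 libraries, against 1.5, 1.67 and 1.54 CPM in early controls (1.24 ± 0.28; edgeR adjusted p = 0.00139). In late cells it held 4.54, 4.85 and 5.59 CPM with Fra2 guides, against 1.87, 1.15 and 2.99 CPM in controls (1.31 ± 0.25; edgeR adjusted p = 0.000395). The groups did not overlap at either time, and inhibitor libraries, at 1.14, 1.77 and 1.2 CPM, lay with the controls. A peak 38.3 kb upstream (92864145 to 92864646) averaged 6.8 ± 1.85 CPM in early Fra2 and 3.83 ± 0.813 in early control (0.84 ± 0.20; edgeR adjusted p = 0.00206). It averaged 7.97 ± 1.01 in late Fra2 and 5.19 ± 0.486 in late control (0.62 ± 0.18; edgeR adjusted p = 0.0185), a call lost without late control 3 (0.54; adjusted p = 0.112) or late Fra2 2 (0.51; adjusted p = 0.124).

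**Figure D3:**
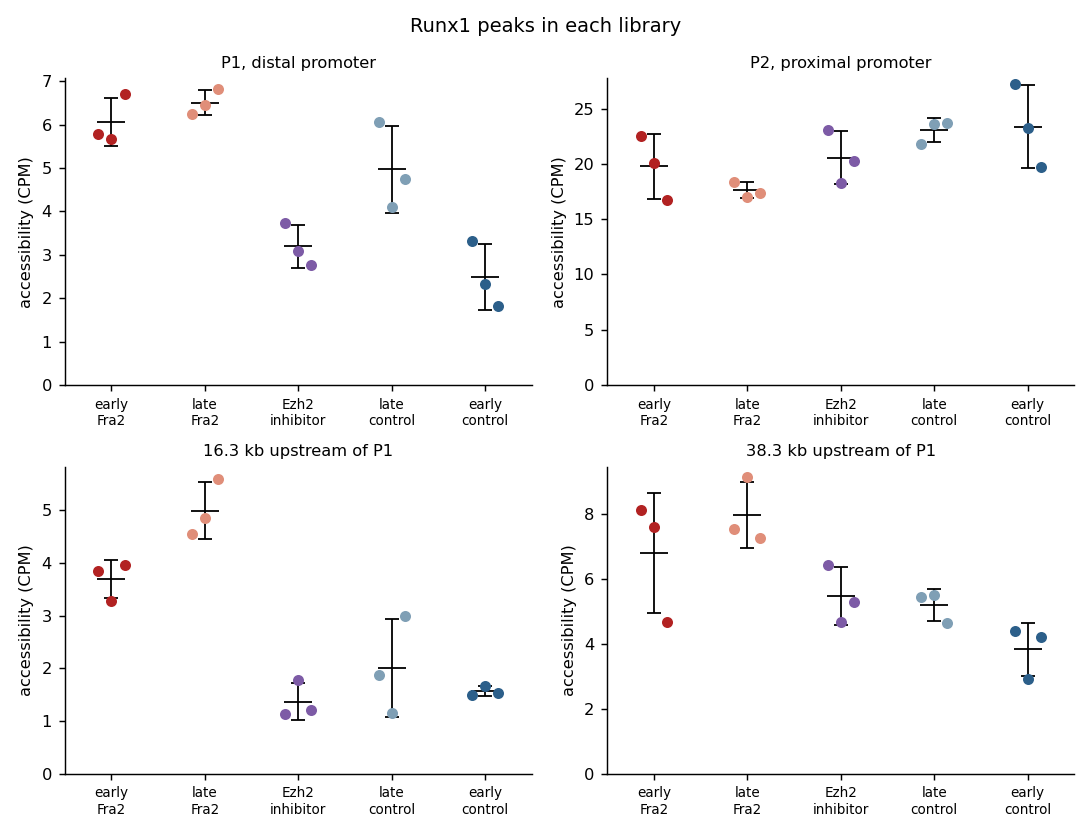
Accessibility (vertical axes, CPM, from 0) of 4 Runx1 peaks in each of 15 libraries, by group, with the mean and SD of 3. At P1 early Fra2 libraries lie at 5.68 to 6.7 CPM and early controls at 1.82 to 3.33. At the highest peak of P2 early Fra2 libraries lie at 16.7 to 22.5 and early controls at 19.7 to 27.2.

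The Runx2 peaks that were higher with early Fra2 guides lay in the gene body, as did 56 of all 65 Runx2 peaks. The steepest early change lay 234.0 kb from the start (chromosome 17, 44580415 to 44580916), with 4.84, 4.88 and 4.76 CPM in early Fra2 libraries, against 2.04, 1.16 and 2.8 CPM in early controls (1.34 ± 0.26; edgeR adjusted p = 0.000119). Late Fra2 and late control libraries averaged 3.02 ± 0.306 and 2.22 ± 0.23 CPM there (0.45 ± 0.25; edgeR adjusted p = 0.242). Further along, 4 neighbouring peaks between 258.6 and 267.6 kb from the start were all higher with early Fra2 guides.

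Of these 4, a pair stayed higher in late cells. The peak 259.5 kb from the start (44554915 to 44555416) held 10.7, 9.43 and 9.01 CPM in early Fra2 libraries, against 4.67, 4.06 and 5.46 CPM in early controls (1.07 ± 0.17; edgeR adjusted p = 8.3e-06). In late cells it held 9.2, 9.6 and 9.02 CPM with Fra2 guides, against 5.6, 4.59 and 4.33 CPM in controls (0.95 ± 0.17; edgeR adjusted p = 0.000102). Its neighbour 258.6 kb from the start (44555827 to 44556328) averaged 3.77 ± 0.918 CPM in early Fra2 and 2.11 ± 0.0691 in early control (0.82 ± 0.26; edgeR adjusted p = 0.0224). Late Fra2 averaged 4.07 ± 0.188 and late control 1.61 ± 0.636 (1.33 ± 0.25; edgeR adjusted p = 0.000277). The early call at the neighbour was lost without early control 1 (0.79; adjusted p = 0.0719), early control 2 (0.85; adjusted p = 0.0542) or early Fra2 3 (0.62; adjusted p = 0.14). Inhibitor libraries averaged 3.73 ± 0.646 CPM there (0.83 ± 0.25 over early control; edgeR adjusted p = 0.0828).

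The peak 267.6 kb from the start (44546784 to 44547285) was the one at which the Fra2 effects differed between the times. It held 22.8, 22.6 and 17.6 CPM in early Fra2 libraries, against 13.9, 12.3 and 6.86 CPM in early controls (0.87 ± 0.17; edgeR adjusted p = 0.000183). In late cells it held 10.5, 9.76 and 13.3 CPM with Fra2 guides, against 14.6, 14.2 and 13.2 CPM in controls (−0.32 ± 0.17; edgeR adjusted p = 0.214). The early groups did not overlap and the late groups did. The difference of the effects was −1.20 ± 0.24 (edgeR adjusted p = 0.0224), and it missed the threshold without early Fra2 1 (−1.13; adjusted p = 0.0889), early Fra2 2 (−1.14; 0.0941), late control 2 (−1.19; 0.0753), late Fra2 1 (−1.16; 0.0677) or late Fra2 2 (−1.11; 0.113).

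In late cells, 3 Runx2 peaks 78.3 to 82.9 kb past the 5′ end of the gene were lower with Fra2 guides. The lowest log2 fold change was at 79.8 kb from the start (44734576 to 44735077), where late Fra2 libraries held 3.51, 3.63 and 3.68 CPM, against 5.6, 6.15 and 5.85 CPM in late controls (−0.71 ± 0.18; edgeR adjusted p = 0.00824). The groups did not overlap, and with scaling on gene-end peaks the value was −0.47 (adjusted p = 0.0602). In early cells the same peak averaged 4.38 ± 0.309 CPM with Fra2 guides and 3.92 ± 0.986 in controls (0.10 ± 0.20; edgeR adjusted p = 0.76). Runx2 had only 1 annotated start, so its P2 was not located and may lie under peaks counted here as gene body. Both peaks over the Runx2 P1 window were nearly level. The peak assigned to Runx2 (44814227 to 44814728) averaged 3.0 ± 0.34 CPM in early Fra2 and 3.07 ± 0.594 in early control (−0.02 ± 0.25), and 3.41 ± 0.474 in late Fra2 and 3.17 ± 0.42 in late control (0.11 ± 0.23). The one nearest to Supt3 (44814761 to 44815262) averaged 5.97 ± 0.971 in early Fra2 and 6.19 ± 0.502 in early control (−0.05 ± 0.18). Supt3, the neighbour that overlaps the 5′ end of Runx2, was assigned 34 peaks, some of them inside Runx2. Of these 9 were higher and 0 lower in early Fra2 (10.1% and 4.92% of all peaks were). In late Fra2, 5 were higher and 1 lower (6.44% and 3.54% of all peaks).

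**Figure D4:**
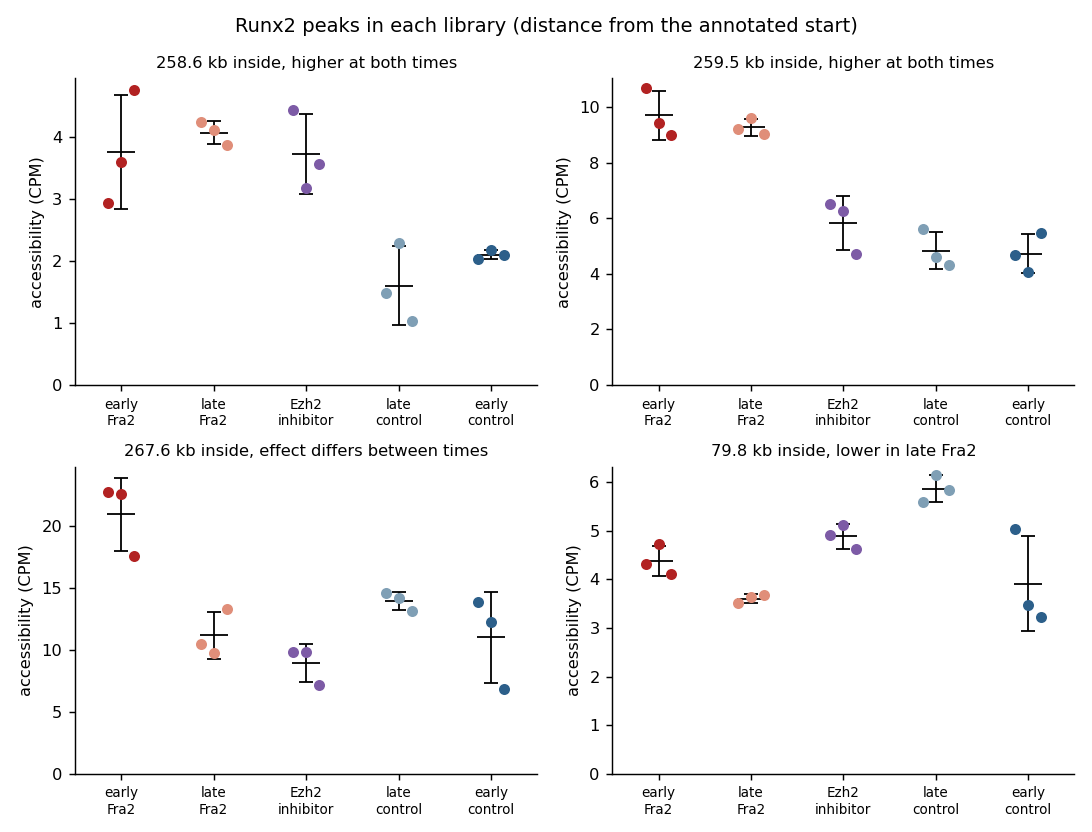
Accessibility (vertical axes, CPM, from 0) of 4 peaks inside Runx2 in each of 15 libraries, by group, with the mean and SD of 3. The peak at 259.5 kb is higher with Fra2 guides at both times. The one at 267.6 kb reaches 17.6 to 22.8 CPM in early Fra2 only, against 6.86 to 14.6 in the other 12 libraries. The one at 79.8 kb has its lowest group mean in late Fra2, at 3.61 CPM, and its highest in late control, at 5.87. Early controls there reach down to 3.22, below the late Fra2 libraries at 3.51 to 3.68.

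Runx3 had few called peaks and none at a promoter. A peak 39.7 kb upstream of P1 (chromosome 4, 135080705 to 135081206) held 4.56, 6.08 and 5.19 CPM in early Fra2 libraries, against 2.68, 4.57 and 2.8 CPM in early controls (0.63 ± 0.21; edgeR adjusted p = 0.036). In late cells it held 4.92, 4.32 and 5.03 CPM with Fra2 guides, against 2.61, 3.08 and 3.53 CPM in controls (0.62 ± 0.21; edgeR adjusted p = 0.0419). Both calls were fragile. The early one was lost without early control 1 (adjusted p = 0.237), early control 3 (0.0649), early Fra2 2 (0.153) or early Fra2 3 (0.0647), the late one without any single late library (adjusted p of 0.0609 to 0.129), and DESeq2 called neither. In the gene body, a peak 14.2 kb past P2 (135166502 to 135167003) was lower with early Fra2 guides, at 2.33, 2.72 and 2.88 CPM, against 3.0, 4.28 and 6.58 CPM in early controls (−0.73 ± 0.25; edgeR adjusted p = 0.0358). This call was lost without early control 2 (−0.75; adjusted p = 0.0777), early control 3 (−0.46; 0.206), early Fra2 1 (−0.63; 0.146) or early Fra2 2 (−0.77; 0.0623). At P2 (135152239 to 135152740) the peak averaged 2.64 ± 0.481 CPM in early Fra2 and 2.62 ± 0.155 in early control, and 1.78 ± 0.354 in late Fra2 and 2.99 ± 0.723 in late control. The late difference missed the threshold (−0.74 ± 0.28; edgeR adjusted p = 0.0739) and passed without late control 1 (−0.92; 0.0386) or early control 3 (−0.74; 0.0417).

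Cbfb had 0 of 10 peaks called in any of the 5 comparisons by edgeR or DESeq2. With 10.1% of all peaks called higher and 4.92% lower in early Fra2, and smaller shares elsewhere, a count of 0 among 10 does not set Cbfb apart from other genes. At an unadjusted edgeR p under 0.05 there were 0 in early Fra2, 3 in late Fra2, 1 with the inhibitor, 0 for the difference between times and 1 between controls. In the same order, 61722, 53726, 30246, 19740 and 35934 of all 206349 peaks tested had such a p. Cyclic loess called 1 higher in early Fra2, and scaling on gene-end peaks called 1 higher at each time. Its promoter peak (chromosome 8, 105170258 to 105170759) held 17.2, 13.3 and 16 CPM in early Fra2 libraries, against 20.5, 19.8 and 15 CPM in early controls (−0.26 ± 0.16; edgeR adjusted p = 0.254). Without early control 3 that difference passed (−0.37; adjusted p = 0.0455). Late Fra2 libraries held 15.4, 14 and 12.3 CPM, against 15.8, 16.7 and 19.3 CPM in late controls (−0.31 ± 0.15; edgeR adjusted p = 0.185). The highest Cbfb peak, 16.1 kb inside the gene (105186487 to 105186988), averaged 23.8 ± 2.15 CPM in early Fra2 and 20.5 ± 6.37 in early control (0.18 ± 0.16).

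The Ezh2 inhibitor left the 4 genes with 0 higher and 2 lower peaks, 0.0% and 1.21% of the 165, against 0.552% and 0.341% of all peaks. At an unadjusted edgeR p under 0.05, 27 of the 165 peaks differed, against 30246 of all 206349 peaks tested. Ezh2 places the repressive H3K27 methyl mark that often covers silent developmental regulator genes. Both lower peaks were in Runx1. One, 23.1 kb past the P2 start (chromosome 16, 92674027 to 92674528), held 4.97, 5.22 and 5.09 CPM in inhibitor libraries, against 8.75, 7.76 and 7.42 CPM in early controls (−0.66 ± 0.17; edgeR adjusted p = 0.0354). The groups did not overlap, but the call was lost without any single inhibitor library (adjusted p of 0.103 to 0.138), early control 1 (0.102) or early control 2 (0.0892). The other lay 78.1 kb upstream of P1, also at −0.66 (edgeR adjusted p = 0.0436). The lower count of 2 moved to 0 without any single inhibitor library or without early control 1 or 2, and to 4 without early control 3, and it was 1 without early Fra2 2, late control 3 or any single late Fra2 library. With scaling on gene-end peaks 5 were higher and 1 lower, with cyclic loess 1 and 3, and DESeq2 called 0 and 1. None of the 4 gene sums passed, where 2.35% of all sums were called higher and 2.71% lower. Runx3 averaged 108 ± 1.71 CPM in inhibitor and 123 ± 14.6 in early control (−0.17 ± 0.06; edgeR adjusted p = 0.103), and it passed without early control 1 (−0.26; adjusted p = 0.0127). Cbfb averaged 65.7 ± 2.14 and 68.8 ± 10.8 (−0.09 ± 0.08; edgeR adjusted p = 0.499), and passed without early control 3 (−0.19; adjusted p = 0.0335). The early controls serve here and in the early Fra2 and control time comparisons, so values in these 3 are not independent.

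Between the 2 times, scrambled-guide cells also differed at these genes. Late control had 7 of 165 peaks higher and 3 lower than early control, 4.24% and 1.82%, against 2.04% and 1.23% of all peaks. Runx1 held 5 of the higher and 2 of the lower ones. The Runx1 sum averaged 391 ± 14.3 CPM in late control and 347 ± 14.4 in early control (0.17 ± 0.04; edgeR adjusted p = 0.0204). The Runx2 sum averaged 367 ± 11.5 and 326 ± 28.7 (0.17 ± 0.05; edgeR adjusted p = 0.0399), where 2.47% of all sums were higher and 2.12% lower. The Runx1 call was lost without early control 2 (adjusted p = 0.082), late control 2 (0.0768) or late control 3 (0.0901). The Runx2 call was lost without early control 2 (0.0561) or 3 (0.0824), and without any single late control, inhibitor or late Fra2 library (adjusted p of 0.0516 to 0.124). Unlike P1, which was higher in late control, a Runx1 peak 22.7 kb upstream of P2 was lower there (92719758 to 92720259), at 1.79, 2.11 and 2.56 CPM, against 3.92, 3.7 and 4.62 CPM in early control (−0.89 ± 0.26; edgeR adjusted p = 0.0383). That call was lost without any single early control (adjusted p of 0.0627 to 0.0714), late control 1 (0.12) or late control 2 (0.127). A Runx2 peak 160.1 kb from its start (44654315 to 44654816) averaged 7.7 ± 0.7 CPM in late control and 4.47 ± 1.57 in early control (0.70 ± 0.19; edgeR adjusted p = 0.0227), lost without early control 3 (0.52; 0.0776), late control 2 (0.0697) or late control 3 (0.104). It was also called higher in early Fra2 (0.58; edgeR adjusted p = 0.027), lost without early control 3 (0.40; 0.101), early Fra2 1 (0.0741), 2 (0.0519) or 3 (0.0636). A Runx3 peak downstream of the gene (135192991 to 135193492) was lower in late control, at 0.896, 1.45 and 1.58 CPM, against 2.04, 2.83 and 5.46 CPM in early control (−1.27 ± 0.34; edgeR adjusted p = 0.024), and without early control 3 the value was −0.86 (adjusted p = 0.149). That call was also lost without late control 1 (−1.07; 0.104) or late control 2 (−1.34; 0.0739). The count of higher peaks was 11 without early control 1, 3 without early control 2, 1 without late control 2 and 4 without late control 3, and that of lower peaks 1 without early control 2 and 0 without late control 1 or 2. With scaling on gene-end peaks 14 were higher and 2 lower. A Runx3 peak 53.8 kb upstream of P1 (135066636 to 135067137) averaged 6.69 ± 1.33 CPM in late control and 3.96 ± 1.27 in early control (0.68 ± 0.19; edgeR adjusted p = 0.034), lost without early control 2 (0.139), early control 3 (0.0869), late control 2 (0.209) or late control 3 (0.101).

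The genes whose summed accessibility ran most like each member over the 15 libraries were found by Pearson correlation of log2 CPM among 11350 genes with at least 5 peaks. For Runx1 these were Tns4 (r = 0.948), Klhl30 (0.948) and Fbxo17 (0.937). For Runx2 they were Glrp1 (0.958), Gadd45a (0.941) and Ovol2 (0.937), for Runx3 Nptx1 (0.913), Zfp36l1 (0.909) and Tekt3 (0.88), and for Cbfb Thumpd3 (0.887), Rb1cc1 (0.883) and Mcu (0.874). Among the members, Runx1 and Runx2 gave 0.817 and Runx3 and Cbfb −0.323. The libraries fall into 5 groups and share depth and scaling, so these are descriptions.

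Proteins that work with RUNX were taken next. For 23 matched genes of cofactors and modifiers, such as the Groucho-type corepressors Tle1 and Tle3, 486 peaks were tested. In early Fra2, 53 were higher and 21 lower (10.9% and 4.32%, against 10.1% and 4.92% of all peaks). In late Fra2 there were 34 and 19 (7.0% and 3.91%, against 6.44% and 3.54%). With the inhibitor there were 3 and 3 (0.617% each, against 0.552% and 0.341%). Late against early control gave 9 and 3 (1.85% and 0.617%, against 2.04% and 1.23%). In early and late Fra2 these shares lie near those of all peaks. The largest gain at both times was 1 peak 93.0 kb from Tle1, at 3.25 ± 0.564 CPM in early Fra2 and 0.996 ± 0.4 in early control (1.71 ± 0.31; edgeR adjusted p = 7.01e-05), and at 4.18 ± 0.553 in late Fra2 and 1.55 ± 0.214 in late control (1.43 ± 0.27; edgeR adjusted p = 0.000346). With the inhibitor, a peak 12 kb from Twist1, whose product inhibits RUNX2, averaged 5.84 ± 0.159 CPM, against 2.87 ± 1.37 in early control (0.94 ± 0.21; edgeR adjusted p = 0.017). The median log2 fold change over the list was 0.00 in early Fra2 and −0.02 in late Fra2.

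For 17 genes that act upstream of Runx2 in bone, 269 peaks were tested. In early Fra2 21 were higher and 12 lower (7.81% and 4.46%, against 10.1% and 4.92% of all peaks), with a median log2 fold change of −0.05. In late Fra2 there were 9 and 10 (3.35% and 3.72%, against 6.44% and 3.54%). The inhibitor gave 1 and 2 (0.372% and 0.743%, against 0.552% and 0.341%). Late against early control gave 3 and 3 (1.12% each, against 2.04% and 1.23%). The largest rise in early Fra2 was at a peak 61.0 kb from the homeobox gene Dlx6. It averaged 2.37 ± 0.254 CPM, against 0.757 ± 0.307 in early control (1.67 ± 0.41; edgeR adjusted p = 0.0028). The largest fall was at a peak 38.0 kb from Msx1, at 0.694 ± 0.256 CPM in early Fra2 and 2.62 ± 2.43 in early control (−1.79 ± 0.52; edgeR adjusted p = 0.0135). Known RUNX targets of bone and cartilage gave 225 peaks at 16 genes. Of these 25 were higher and 5 lower in early Fra2 (11.1% and 2.22%, against 10.1% and 4.92% of all peaks), with a median log2 fold change of 0.01. In late Fra2 there were 9 and 14 (4.0% and 6.22%, against 6.44% and 3.54%). The inhibitor gave 3 and 5 (1.33% and 2.22%, against 0.552% and 0.341%). Late against early control gave 4 and 1 (1.78% and 0.444%, against 2.04% and 1.23%). Col1a1, a collagen gene that is also a fibroblast marker, held 8 of the 14 lower in late Fra2 and 4 of the 5 lower with the inhibitor, and 0 of its 37 peaks were higher in either. Tnfsf11, which encodes the osteoclast factor RANKL, held 27 peaks, and late Fra2 called 3 of them higher and 2 lower. One lower peak stood in late Fra2 at 5.37 ± 0.753 CPM, against 9.52 ± 0.935 in late control (−0.82 ± 0.17; edgeR adjusted p = 0.00105). A higher one stood at 1.97 ± 0.293 CPM in late Fra2 and 0.719 ± 0.205 in late control (1.46 ± 0.43; edgeR adjusted p = 0.0213).

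Known RUNX targets of blood gave 131 peaks at 14 genes, and most called peaks among them belonged to 1 gene. In early Fra2 23 were higher and 1 lower (17.6% and 0.763%, against 10.1% and 4.92% of all peaks; median log2 fold change 0.17, against −0.03). In late Fra2 17 were higher and 4 lower (13% and 3.05%, against 6.44% and 3.54%). With the inhibitor there were 13 and 0 (9.92% and 0.0%, against 0.552% and 0.341%), and in late against early control 9 and 0 (6.87% and 0.0%, against 2.04% and 1.23%). Csf1, which encodes the macrophage growth factor M-CSF that fibroblasts also make, held 16 of the 23, all 17, all 13 and 7 of the 9 higher peaks among its 53. Its largest change with the inhibitor lay 6.1 kb from the gene (chromosome 3, 107734697 to 107735198), at 8.39 ± 1.32 CPM in inhibitor and 3.14 ± 0.323 in early control (1.42 ± 0.18; edgeR adjusted p = 1.22e-05). Gfi1b, which encodes a transcriptional repressor that acts in red cell and platelet precursors, had 1 higher peak in early Fra2. That peak averaged 4.91 ± 1.01 CPM, against 1.7 ± 0.622 in early control (1.60 ± 0.28; edgeR adjusted p = 2.35e-05). Across the 4 lists the interaction between time and Fra2 passed at 2 peaks, both lower and both at the cytokine gene Csf2.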

How the data were processed

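Omni-ATAC-seq was measured in 15 libraries, 3 in each of 5 groups named by the sample titles. The deposited table holds raw read counts per consensus peak, 206367 peaks of 502 bp. Per the submitters' processing notes the build was mm10 and MACS2 was used. Aligner, counting tool and consensus method: not given in the sources used here. In addition, the authors' deposited peak list of each library holds the peak caller's score, fold enrichment over background, −log10 p and −log10 q, of which overlap (at least 1 base) and, as an alternative, −log10 q were used.

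Each peak went to its nearest protein-coding gene (RefSeq table, GRCm38.p6), up to 100 kb. A peak inside overlapping genes went to the one whose end was nearest. The test was the quasi-likelihood F-test of edgeR 4.0.16 (R 4.3.3) on counts scaled by TMM, after the default filter (206349 peaks kept, all 165 members among them), in 1 fit of 15 libraries. P-values were adjusted by Benjamini-Hochberg over all peaks, or over all 18293 genes for counts summed per gene, and called under 0.05. The script was tested on simulated data. Named peaks are the highest peak of each gene, its 2 highest peaks within 1 kb of a start or gene end, the largest called rise and fall in each comparison, and peaks called alike at both times, and other peaks were chosen after their values were seen. Promoter sequences come from RefSeq (GRCm38.p6). No genome sequence was used, so peaks were not corrected for GC content. The members and lists were chosen with earlier results of these data known. Alternatives were DESeq2 1.42.0, cyclic loess with limma 3.58.1, RLE or gene-end scaling, no filter, a replicate block, a 10 kb limit and each library left out.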

Additional observations from a re-analysis of the deposited data

Results flagged for a closer look

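At the Runx2 peak 267.6 kb inside the gene (chromosome 17, 44546784 to 44547285), the late Fra2 effect minus the early one was −1.20 ± 0.24 on the log2 scale (SE; edgeR adjusted p = 0.0224), a tested difference between the 2 times. The late effect was −0.32, with late Fra2 libraries at 9.76 to 13.3 CPM and late controls at 13.2 to 14.6. The early effect was 0.87, with early Fra2 libraries at 17.6 to 22.8 CPM and early controls at 6.86 to 13.9. DESeq2 gave −1.20 (adjusted p = 0.00633) and cyclic loess −1.12 (adjusted p = 0.0059). The nearest peak, 266.5 kb from the start (44547881 to 44548382), had the same sign of difference, at −0.77 ± 0.33, without passing the threshold (edgeR adjusted p = 0.425). It averaged 3.01 ± 0.431 CPM in late Fra2 and 2.68 ± 0.694 in late control (0.17), and 5.45 ± 1.15 in early Fra2 and 2.86 ± 0.294 in early control (0.94). The peaks at 258.6 and 259.5 kb gave differences of 0.51 and −0.13, neither past the threshold (edgeR adjusted p = 0.696 and 0.915).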

How the results depend on the processing

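RLE scaling, the fit without a filter and the replicate block kept every count and gene sum on its side of the threshold. The replicate numbers were not taken to pair the libraries, since the deviations of same-numbered libraries correlated above 0.1 in 4 of 30 pairs (−0.192 to 0.262), and 6 of 15 libraries correlated best with one of their own number. With the replicate block, 21 member peaks were higher and 1 lower in early Fra2. Scaling on gene-end peaks centred all peaks on a median log2 fold change of 0.18 in early Fra2 (−0.032 with TMM), 0.228 in late Fra2 (−0.007) and 0.143 with the inhibitor (−0.001). Of the member peaks it called 47 higher and 0 lower in early Fra2, 19 and 0 in late Fra2, 5 and 1 with the inhibitor, and 14 higher in late over early control. It also called the sums of Runx3 in early Fra2 (0.27) and of Runx1 (0.19), Runx2 (0.19) and Runx3 (0.18) in late Fra2. Cyclic loess gave 32 higher and 3 lower in early Fra2, 1 higher with the inhibitor and 14 higher in late over early control, and it turned the Runx2 peak at 44500386 to 0.28 in late Fra2 (−0.16 with edgeR). DESeq2 gave 1 lower peak with the inhibitor and called the Runx2 sum in the interaction (−0.26). Within 10 kb, late Fra2 had 3 higher peaks and the inhibitor 1 lower. The causes were not tested.

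With each library left out in turn, early Fra2 had 13 to 21 higher and 0 to 7 lower peaks, late Fra2 4 to 9 and 1 to 8, the inhibitor 0 to 1 and 0 to 4, the interaction 0 to 1 lower, and late over early control 1 to 11 and 0 to 3. The sums ranged from 0.00 to 0.17 for Runx3 in early Fra2, −0.26 to −0.09 for Runx3 and −0.19 to −0.00 for Cbfb with the inhibitor, −0.30 to −0.19 for Runx2 in the interaction, and 0.15 to 0.21 for Runx1 and 0.10 to 0.22 for Runx2 in late over early control. In early Fra2 the Runx1 sum stayed between 0.16 and 0.25 and the Runx2 sum between 0.22 and 0.33, past the threshold each time. A peak of the authors' lists overlapped 63 of 165 members in early control 3, the shallowest library, against 109 to 154 in the other libraries, 44 against 99 to 152 at a −log10 q of at least 2, and 43 against 91 to 140 with at least 0.5 of the peak covered.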
